A study of Mus musculus with 2 samples.

Results

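The nuclei described here are glutamatergic hindbrain nuclei that held transcripts of the caudal Hox genes, and they numbered 157 of the 713 nuclei sequenced. A nucleus was a member when the vesicular glutamate transporters Slc17a6, Slc17a7 and Slc17a8 gave at least 75% of its 3 or more transmitter UMIs (unique molecular identifiers, each standing for 1 captured transcript), the rest being Gad1, Gad2, Slc32a1 and Slc6a5. It also had to hold at least 1 UMI summed over the Hox genes of paralog groups 4 to 8. Nuclei with a UMI in 3 or more genes of either of 2 sets of 5 (Prdm6, Spx, Crh, Svep1, Asb4; Gm13912, C1ql2, Tacr3, Arsj, Ntsr1) were left to 2 separate glutamatergic classes, called here Crh and Prdm6 nuclei and C1ql2 and Tacr3 nuclei. The hot water bath library held 78 members among 425 nuclei (18.4%, exact binomial 95% interval 14.8 to 22.4%), and the SNI with brush library held 79 among 288 (27.4%, 22.4 to 33.0%). The 131 glutamatergic nuclei that met the same transmitter and peptide rule but held no Hox4-8 UMI, 96 and 35, served as the comparison. The members were chosen on measured UMIs, so their Hox4-8 and transmitter values are a description and carry no test.

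Hox genes encode homeodomain transcription factors that lie in 4 clusters, and in the embryo their order along a cluster matches the order of their front borders along the hindbrain and spinal cord. Genes of the first paralog groups start in the pons and rostral medulla, and later groups start in the caudal medulla and spinal cord, so that the set of Hox genes that a hindbrain neuron still expresses is widely read as a record of its rostrocaudal origin. Glutamatergic neurons of the brainstem reticular formation and vestibular complex project to the spinal cord and drive or adjust movement, posture, autonomic output and sensory transmission.

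The study sorted nuclei of hindbrain cells with axons to the lumbar cord, from mice given the treatments named below. Whether the sorted nuclei were engaged by these treatments was not tested. All animals were of the TRAP2 strain, which expresses a tamoxifen-dependent Cre recombinase from the activity-regulated Fos gene, and were 8 to 12 weeks old. The retrograde virus AAV-retro-H2B-GFP, which labels nuclei green, was injected into the lumbar spinal cord, hindbrain tissue from -7.3 to -5.2 mm relative to bregma was pooled within a treatment, and sorted nuclei went into a 10x Genomics 3' library. One pool came from mice exposed to a hot water bath and the other from mice labelled SNI with brush. There was no unstimulated group, and the number of animals per pool is not stated in the labels. Because every treatment is 1 pooled library, nuclei are not replicates of it, differences between the libraries have no replicate check, and pool, sort, library and treatment cannot be told apart.

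The libraries held 16344606 and 11298755 UMIs, with medians of 36962 and 32852.5 UMIs per nucleus, and shared no cell barcode. The SNI with brush library stood apart in 3 ways. Transcripts of Ttr, a thyroid hormone carrier made by the choroid plexus and liver, were found in 78 of its 79 members (233 CPM, UMIs of a gene per 1000000 UMIs), against 20 of 78 members of the hot water bath library (8.89 CPM). Mitochondrial transcripts made up a median of 0.231% of its members' UMIs against 0.0729%. It also held 17 nuclei with at least 50 UMIs of the liver genes Alb, Apoa1 and Cps1, of which 1 was a member with 164 such UMIs; no other member of either library had more than 4. Median depth of the members was 40099 and 37372 UMIs, against 36568.5 and 33545 for the comparison nuclei. Results that rest on these values are given beside them, and intervals throughout cover counting error only.

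The marker check bore out the neuronal part of the label, and the Hox markers were rare in the hot water bath library. At least 2 of 8 pan-neuronal genes were detected in all 157 members. Slc17a6, which loads glutamate into the vesicles of most brainstem excitatory neurons, was found in 77 of 78 hot water bath members (169 CPM) and in 77 of 79 SNI with brush members (184 CPM); the rule chose members on this gene and its relatives, so this checks nothing. Hoxb5 was found in 7 and 28 members (2.45 and 20.3 CPM), and Hoxb6 in 5 and 21 (3.98 and 9.75 CPM). Hoxb5 and Hoxb6, given as markers of these nuclei, were therefore each in fewer than 10% of hot water bath members, where Hoxc4 was the most frequent Hox4-8 gene.

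Markers of other cell types were present in the members, at shares that depended on the type. At least 2 of the 4 inhibitory genes were detected in 1 and 10 members, and at least 2 of 5 astrocyte genes in 0 and 8. Oligodendrocyte genes, which code for abundant myelin proteins, summed to 79.4 and 209 CPM, and at least 2 of the 6 were found in 46 and 68 members. Microglia genes summed to 71.7 and 66.1 CPM, with at least 1 of the 4 in 64 and 63 members and at least 2 in 22 and 31; in the comparison nuclei they summed to 82.2 and 78.8 CPM. A single SNI with brush member held 82 of that library's 89 member UMIs of Tph2, the serotonin-synthesising enzyme. The part of these transcripts in the results was not tested.

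A Hox4-8 UMI was not particular to these nuclei. In the hot water bath library it occurred in 3 of 49 Crh and Prdm6 nuclei (6.12%, 1.28 to 16.9%), none of which held 2, at a median depth of 36581 UMIs. In the SNI with brush library it occurred in 5 of 9 such nuclei (55.6%, 21.2 to 86.3%), and in 6 of the 17 nuclei rich in liver transcripts (35.3%, 14.2 to 61.7%; median depth 22273 UMIs), 2 of which kept one after thinning to 9000 UMIs. Those 17 nuclei summed to 24.3 CPM of Hox4-8 (12.6 to 42.4), against 113 CPM in SNI with brush members and 54.9 CPM in hot water bath members. In the other classes of the hot water bath library the frequency was higher, at 11 of 31 C1ql2 and Tacr3 nuclei, 34 of 85 inhibitory nuclei (40%, 29.5 to 51.2%) and 37 of 86 nuclei with mixed or few transmitter UMIs (43.0%, 32.4 to 54.2%). In SNI with brush it was 65 of 106 inhibitory nuclei (61.3%, 51.4 to 70.6%) and 27 of 56 mixed nuclei (48.2%, 34.7 to 62.0%).

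The choice of members turned on few UMIs. In the hot water bath library 38 of 78 members held exactly 1 Hox4-8 UMI, 5 held 5 or more, and the largest held 13. In the SNI with brush library 30 of 79 held exactly 1, 26 held 5 or more, 13 held 10 or more, and the largest held 35. Totals were 179 and 418 UMIs, of which the 5 richest members of each library held 20.1% and 32.5%. When every nucleus was thinned to 9000 UMIs, 35 of 78 (44.9%) and 40 of 79 (50.6%) members kept a Hox4-8 UMI. On the transmitter side, 61 and 34 members had only glutamatergic transmitter UMIs, 1 and 5 lay between 75 and 80%, and 3 nuclei of each library with a Hox4-8 UMI lay just outside, between 70 and 75%.

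**Figure D1:**
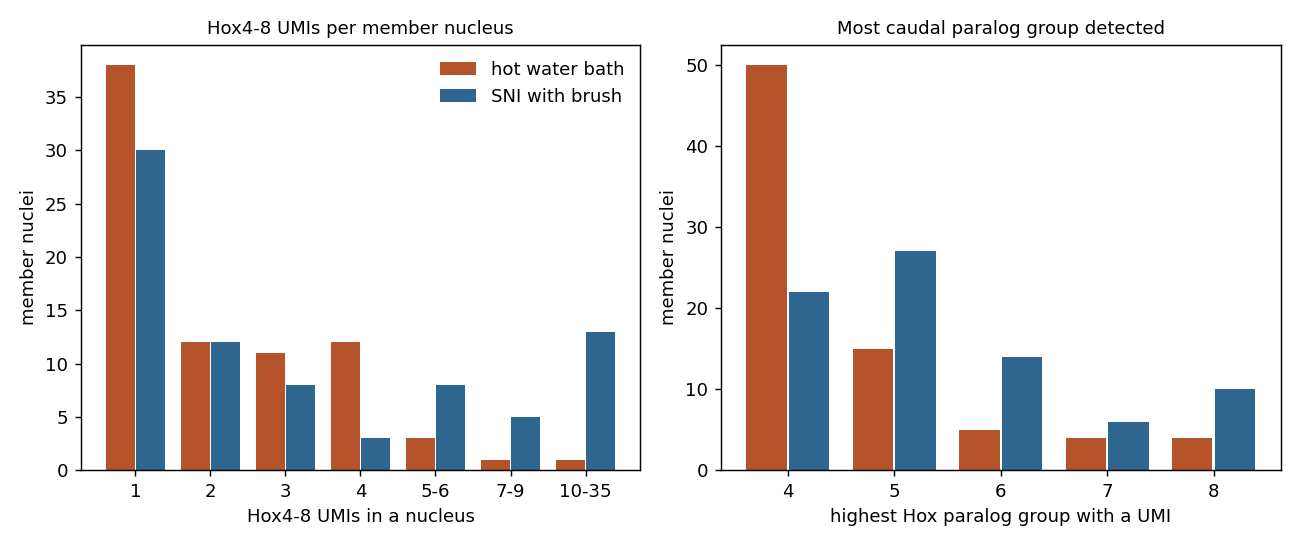
Left: number of member nuclei (y axis) by Hox4-8 UMIs per nucleus (x axis). Right: number of member nuclei by the highest paralog group with a UMI. Colours mark the 2 libraries; 50 of 78 hot water bath members stop at group 4, whereas 57 of 79 SNI with brush members reach groups 5 to 8.

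The plot of UMIs per nucleus shows that the SNI with brush members had a longer upper tail, and the median nucleus of that tail was deep. SNI with brush members with 5 or more Hox4-8 UMIs had a median of 64138.5 UMIs and 0.508% mitochondrial transcripts, against 31848.5 UMIs and 0.178% in those with 1, although the shallowest of them, at 12409 UMIs, was also the shallowest member of that library. The 5 hot water bath members with 5 or more had a median of 41959 UMIs and 0.326%, against 40099 and 0.0671% in those with 1. The part of depth and of mitochondrial content in the Hox level was not tested.

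Paralog group 4 was the shared core of both libraries. Hoxc4, on chromosome 15 (mm10, 103018934 to 103036852, plus strand), gave 76 UMIs in 49 hot water bath members (62.8%, 23.3 CPM) and 91 UMIs in 40 SNI with brush members (50.6%, 24.6 CPM). Its CPM was thus nearly equal in the 2 libraries (log2 ratio 0.08, exact conditional 95% interval -0.37 to 0.54). Hoxd4 gave 8.27 CPM in 23 members and 7.58 CPM in 20. Hoxb4 gave 5.52 CPM in 13 members and 12.7 CPM in 27, and Hoxa4 gave 1.84 CPM in 6 and 3.79 CPM in 12. Over the 4 genes the sums came to 38.9 and 48.7 CPM (log2 ratio 0.32, -0.01 to 0.66). Hoxd4 lies within the annotated span of Hoxd3, and Hoxa4 within that of Hoxa3, so reads in shared stretches could be assigned to either.

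Groups 5 and 6 had higher sums in the SNI with brush library. Hoxa5, which in the embryo patterns the caudal medulla and cervical cord, gave 14 UMIs in 12 hot water bath members (4.29 CPM) and 69 UMIs in 30 SNI with brush members (18.7 CPM), a log2 ratio of 2.08 (1.28 to 3.07). Of the 69 Hoxa5 UMIs 18 lay in 1 nucleus. Hoxb5, on chromosome 11 (96303336 to 96306121, plus strand), gave 8 and 75 UMIs (log2 ratio 2.97, 2.00 to 4.31). Hoxb6, its neighbour at 96292476 to 96301569, gave 13 and 36 UMIs (1.26, 0.34 to 2.33), although 8 of the 13 came from 1 nucleus. Summed over Hoxa5, Hoxb5 and Hoxc5, group 5 came to 7.66 and 41.4 CPM (log2 ratio 2.41, 1.82 to 3.11). Hoxc5 was the scarcest of the 3, with 3 and 9 UMIs in 3 and 8 members. Group 6 stood at 4.60 and 14.6 CPM (1.64, 0.82 to 2.60); besides Hoxb6 it drew on Hoxc6, with 2 and 17 UMIs in 2 and 8 members, of which 7 lay in 1 nucleus, and on Hoxa6, with 0 and 1. The intervals of the ratios of groups 4 and 5 do not overlap, but these UMIs were the ones that chose the members and the intervals cover counting error in 1 library each, so the values are a description.

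Groups 7 and 8, whose embryonic borders lie in the spinal cord, were rare in both libraries. Hoxa7 and Hoxb7 together gave 8 UMIs in 6 hot water bath members and 18 UMIs in 10 SNI with brush members (log2 ratio 0.94, -0.28 to 2.40). Hoxb8 gave 4 UMIs in 4 members and 13 UMIs in 10 (1.41, -0.17 to 3.60). Both intervals include 0. Hoxc8, Hoxd8 and the groups above 8 were not analysed here. Hoxb5 and Hoxb6 both overlap the antisense gene Hoxb5os, and Hoxc5 and Hoxc6 overlap each other. The sources used here do not say whether counting used strand, so single-gene values in these stretches are uncertain, whereas the sums over a group are less so.

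**Figure D2:**
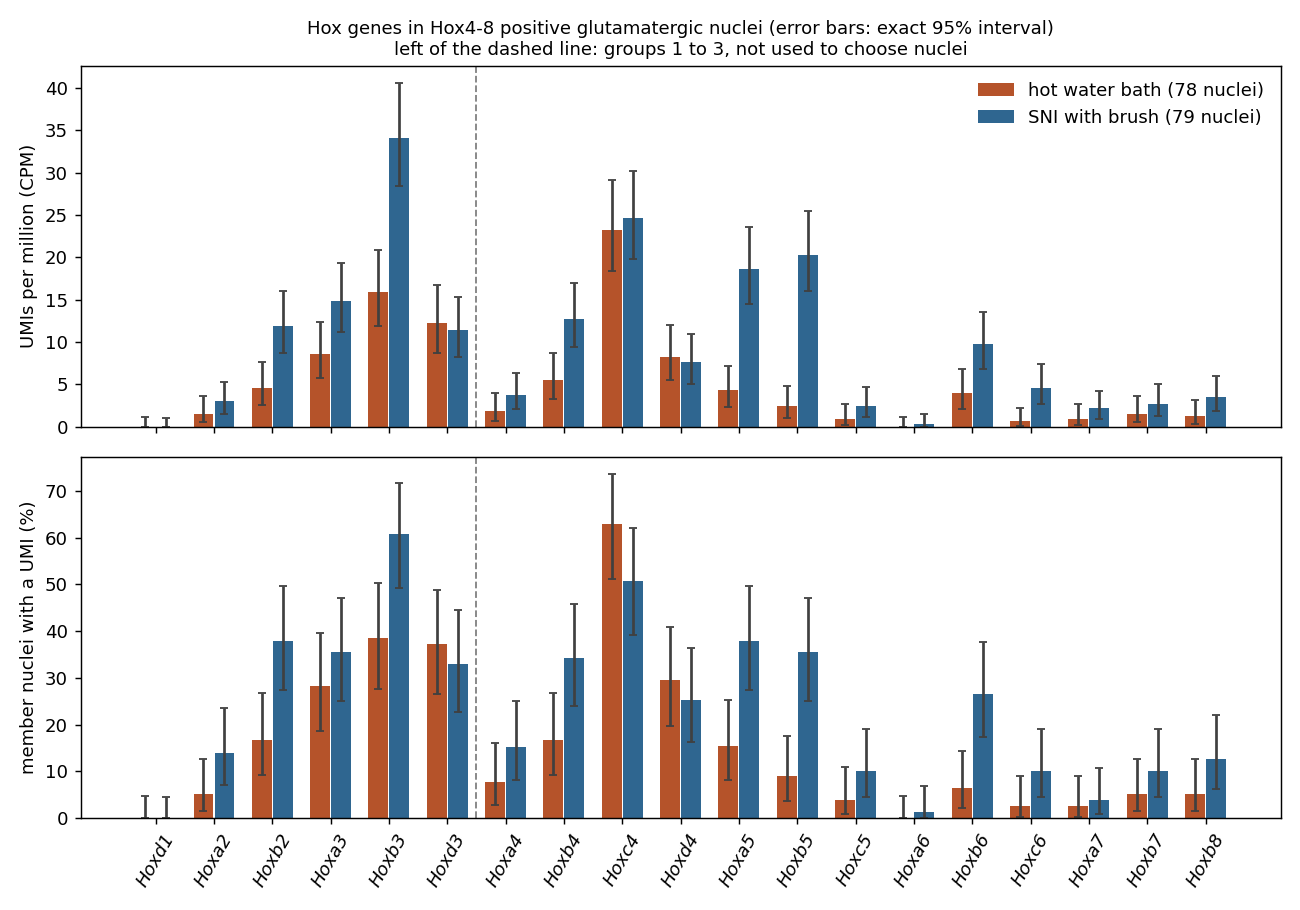
Level (top, CPM) and detection (bottom, percent of member nuclei with a UMI) of the Hox genes given here in the members of the 2 libraries, with exact 95% intervals; genes left of the dashed line belong to groups 1 to 3 and were not used to choose nuclei. Hoxc4 and Hoxd4 are level between the libraries, and Hoxa5 and Hoxb5 are higher in SNI with brush.

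Within single nuclei the Hox genes were sampled thinly. The rule was met by 1 gene alone in 48 hot water bath and 33 SNI with brush members, and by 3 or more genes in 15 and 31. Hoxc4 alone accounted for 28 and 9 members. The highest paralog group with a UMI was group 4 in 50 hot water bath members and 22 SNI with brush members, group 5 in 15 and 27, group 6 in 5 and 14, group 7 in 4 and 6, and group 8 in 4 and 10. Groups 5 to 8 were thus reached in 35.9% (25.3 to 47.6%) and 72.2% (60.9 to 81.7%) of members. Among SNI with brush members with Hoxc4, 16 of 40 also held Hoxb4, 15 Hoxb5 and 15 Hoxa5. Among hot water bath members with Hoxc4, 9 of 49 held Hoxb4, 2 Hoxb5 and 5 Hoxa5. Combinations of genes were thus found in more of the SNI with brush members, and the part of depth in these counts was not tested.

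The Hox genes of groups 1 to 3 took no part in choosing members, so they can be set against the comparison nuclei. A UMI of any of them was found in 59 of 78 hot water bath members (75.6%, 64.6 to 84.7%) and 63 of 79 SNI with brush members (79.7%, 69.2 to 88.0%). In the comparison nuclei the shares were 41.7% (31.7 to 52.2%) of 96 and 45.7% (28.8 to 63.4%) of 35. Hoxb3 was the most abundant of them. It stood at 15.9 and 34.1 CPM in members and at 6.78 and 7.41 CPM in comparison nuclei, so both member sums lay above both comparison sums. Its log2 difference was 1.66 (SE 0.31; adjusted p = 0.0487, edgeR's quasi-likelihood test with Benjamini-Hochberg adjustment), which 9 of 11 alternative fits did not call. Hoxa3 differed by 1.89 (SE 0.43) without passing (adjusted p = 0.152, same test), with 8.58 and 14.9 CPM in members against 2.98 and 2.70 CPM. Between the libraries Hoxd3 was level in members, at 12.3 and 11.4 CPM, whereas Hoxb2 stood at 4.60 and 11.9 CPM. Hoxa2 gave 5 and 11 UMIs, and no Hoxd1 UMI was found in any member, which allows up to 0.919 and 0.812 CPM (3 counts of each total, for counting error only). The span of Hoxa3 contains Hoxa4, Hoxa5 and Hoxa6, which belong to the rule.

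The class comparison asked which other genes set members apart from Hox4-8 negative glutamatergic nuclei. UMIs were summed per class and library into 4 sums and fitted with library as a term, which left 1 residual degree of freedom. The p-values therefore measure the spread between these sums and not between animals. Of 13884 genes tested outside the rule, 20 were called higher in members (0.144% of genes tested) and 15 lower (0.108%). The median absolute log2 difference was 0.16. At an unadjusted p below 0.05 there were 811 genes, 5.84% of those tested.

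Reln, the secreted glycoprotein reelin, was the gene called most firmly. It stood at 482 CPM in hot water bath members and 183 CPM in SNI with brush members, and at 173 and 66.7 CPM in the comparison nuclei. Members were thus above comparison nuclei within each library by a like ratio, although the level in the SNI with brush members was close to that of the hot water bath comparison nuclei. The log2 difference was 1.47 (SE 0.12, adjusted p = 0.000475, edgeR's quasi-likelihood test with Benjamini-Hochberg adjustment). Reln was detected in 54 of 78 and 37 of 79 members, and 10 of 12 alternative fits called it. It was the one gene called higher both by DESeq2 and with scaling to total UMIs alone. It was not called without the library term or among nuclei of 25000 to 60000 UMIs (log2 difference 0.83, adjusted p = 0.254).

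Genes of adhesion, matrix and postsynaptic organisation were among the others called higher. Col25a1, a transmembrane collagen, stood at 185 and 83.7 CPM in members and 89.3 and 41.1 CPM in comparison nuclei (log2 difference 1.05, SE 0.14, adjusted p = 0.0126 by edgeR), and 9 of 12 alternatives called it. Cdh23, a cadherin best known from hair cell tip links, stood at 21.8 and 53.1 CPM against 7.33 and 6.06 CPM (2.20, SE 0.32). It was confined to few nuclei, with UMIs in 7 and 20 members. Frmpd4 and Tanc1, scaffold proteins of excitatory synapses, differed by 0.76 (SE 0.11) and 0.89 (SE 0.14), and Neto1, an auxiliary subunit of kainate receptors, by 0.96 (SE 0.16). Frmpd4 was in nearly every nucleus (1262 and 1670 CPM in members, 736 and 1004 CPM in comparison nuclei), so this difference is one of level and not of detection. Of 12 alternative fits, 6 each called Cdh23, Frmpd4 and Tanc1, and 5 called Neto1.

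Receptors and regulators were also among the genes called higher. Calcrl, the receptor that binds CGRP and adrenomedullin with RAMP partners, was in 13 and 12 members (15.6 and 14.6 CPM) and in 3 and 5 comparison nuclei (2.17 and 4.72 CPM), a log2 difference of 2.31 (SE 0.41). Chrna7, the alpha7 nicotinic receptor, differed by 0.99 (SE 0.18) but varied more between libraries than between classes, with 236 and 35.7 CPM in members against 101 and 27.0 CPM. Zfpm2, a cofactor of GATA factors, differed by 1.04 (SE 0.17) and Stard13, a GTPase-activating protein, by 1.35 (SE 0.23). Of the 133 Stard13 UMIs of SNI with brush members, 57 lay in 1 nucleus. Calcrl was called by 4 of 10 alternative fits, and Chrna7, Zfpm2 and Stard13 by 4 of 12 each. The zinc finger factor St18 showed the largest difference of the genes named by the rule, 2.86 (SE 0.49), with 14.1 and 12.7 CPM in members and 1.09 and 3.37 CPM in comparison nuclei. Of 10 alternative fits 3 called it. St18 is also on the oligodendrocyte list; the other 5 genes of that list summed to 65.3 and 196 CPM in members and 68.6 and 127 CPM in comparison nuclei. In SNI with brush members with a St18 UMI those 5 genes stood at 367 CPM against 145 CPM in those without, and in the hot water bath library at 80.3 against 61.8 CPM; their part in the St18 result was not tested.

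Of the genes called lower in members, 9 were found in 10 or more comparison nuclei with at most 25% of their UMIs in 1 of them, predicted gene models left out, and the largest differences among these 9 were those of Shroom4, an actin-binding regulator of cell shape, and Myo3b, a class III myosin. Shroom4 stood at 6.74 and 4.87 CPM in members and at 30.9 and 20.9 CPM in comparison nuclei (log2 difference -2.14, SE 0.29). Myo3b stood at 10.7 and 4.87 CPM against 29.8 and 22.9 CPM (-1.76, SE 0.29). Trhde, the enzyme that degrades thyrotropin-releasing hormone, differed by -1.02 (SE 0.15), and Rnf220, a ubiquitin ligase of neural patterning, by -1.05 (SE 0.17). Gabrg3, a GABA-A receptor subunit, and Kcnj6, a G protein-gated potassium channel subunit, differed by -0.82 (SE 0.11) and -0.75 (SE 0.14). Pld5, Prr16 and the adhesion molecule Alcam differed by -0.87, -0.65 and -0.63. For each of these 9 genes, both member sums lay below the comparison sum of the same library, which was a condition for naming a gene. Of 12 alternative fits, 7 each called Trhde, Rnf220, Gabrg3 and Pld5, 5 called Prr16, and 3 each called Kcnj6 and Alcam. Of 10 such fits, 5 called Shroom4 and 3 called Myo3b.

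Named by list, 4 further genes passed the test but leaned on single nuclei. The peptide gene Cck differed by 1.99 (SE 0.28), with 76 of its 302 member UMIs in 1 nucleus. Tac2, which encodes neurokinin B, differed by 2.93 (SE 0.43), with 53 of its 61 hot water bath member UMIs in 1 nucleus. Cyp26b1, which degrades retinoic acid, differed by -3.02 (SE 0.53) and the nuclear receptor Nr4a2 by -2.87 (SE 0.51). The count of calls was itself unsteady: it was 1 higher and 1 lower with DESeq2 and with scaling to total UMIs alone, 2 and 3 without called doublets, 8 and 7 without the nucleus rich in liver transcripts, and 0 without the library term, where 118 genes had an unadjusted p below 0.05. No gene among the main calls changed sign in these fits.

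**Figure D3:**
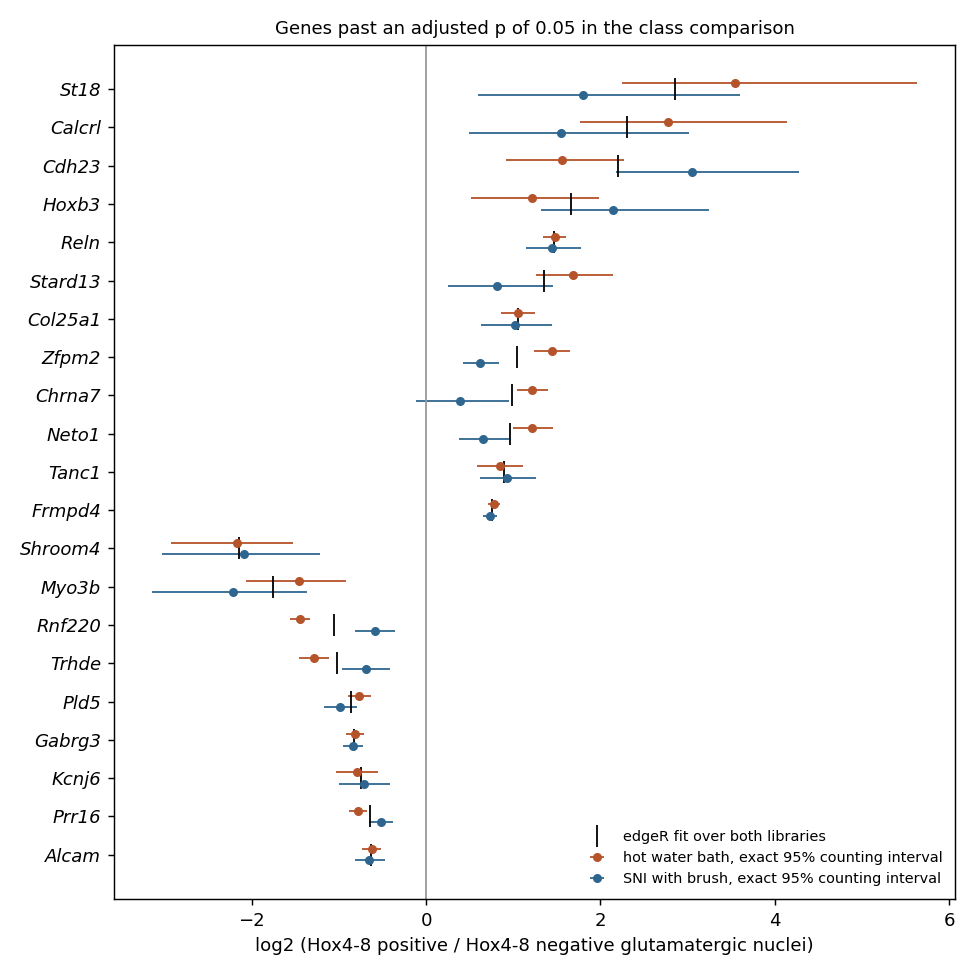
Log2 ratio of members over Hox4-8 negative glutamatergic nuclei (x axis) for each gene named in the class comparison (y axis); points give each library alone with exact 95% intervals, and the black tick gives the edgeR fit. Points of both libraries lie on the same side of 0 for every gene shown, which was a condition for naming a gene.

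Pathway lists gave few calls between the classes. Of 9 Hox cofactors tested (the Meis, Pbx and Pknox genes, whose proteins bind DNA together with Hox proteins), none passed in edgeR's quasi-likelihood test, 2 had an unadjusted p below 0.05, and their median log2 difference was 0.26. For comparison, 5.84% of all genes tested had an unadjusted p below 0.05. Of 38 transcription factors that mark hindbrain and spinal neuron classes none passed and 13 had an unadjusted p below 0.05 (median 0.15); Nfib, a factor of later-born neurons, came nearest at 1.46 (adjusted p = 0.0616 by edgeR). None of 11 transmitter genes (those of the rule among them), 15 monoamine receptors, 5 opioid genes, 35 axon guidance genes or 21 genes of oxidative phosphorylation passed (2, 1, 0, 8 and 0 of them had an unadjusted p below 0.05), with medians between -0.24 and 0.14. Of 21 genes of large projection neurons (neurofilaments, fast potassium channels, perineuronal net genes) none passed, and the median was 0.29. An unadjusted p below 0.05 was found for 9, all of them with the higher value in members. Among these 9 was Slc17a7, a gene of the rule that is also among the 2 such transmitter genes. Values of rule genes chose the members, so their p-values are no test. Nefh, the heavy neurofilament, stood at 0.89 (adjusted p = 0.0742 by edgeR). Of 18 neuropeptide genes 2 were higher (Cck and Tac2, median -0.34), and of 17 peptide receptors 1 was higher (Calcrl, median 0.06). Of 13 immediate early genes 1 was lower (Nr4a2, median -0.41), and of 8 retinoic acid genes 1 was lower (Cyp26b1, median -0.03). An unadjusted p below 0.05 by edgeR was found for 8 neuropeptide genes (4 higher and 4 lower) and 3 peptide receptors (all higher). It was found for 3 immediate early genes and 1 retinoic acid gene, all lower. Across all lists the shares are small numbers set against a background of 0.252% called either way, and the lists were compiled with earlier results of these data known.

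To see whether the members form 1 population, all 288 other glutamatergic nuclei were clustered without any Hox gene. They fell into 12 clusters, and members were present in 11 of them. The share of members ran from 0 of 9 nuclei in cluster 12 (led by Crhbp and Cartpt), exact 95% interval 0 to 33.6%, to 15 of 16 in cluster 9 (93.8%, 69.8 to 99.8%; led by Drd2, Vip and Reln). It was 84.6% of 13 nuclei in cluster 8 (St18, C1ql3), 80% of 10 in cluster 6 (Gna14), 76.9% of 26 in cluster 5 (Zic2, Slc17a7) and 69.6% of 46 in cluster 1 (Maf, Acan). It was 66.7% of 24 in cluster 4 (Sox14, Pnoc), 56.5% of 23 in cluster 3 (Tac1) and 50.8% of 63 in cluster 2 (Ebf2, Lmx1b). Clusters 7 (Cyp26b1), 10 (Nr4a2, Trhde) and 11 (Prdm6, Shroom4) were mostly Hox4-8 negative, at 21.7%, 13.3% and 15%. These last 3 clusters are led by genes that the class comparison called lower, and clusters 4, 8 and 9 by Calcrl and Col25a1, by St18 and Zfpm2, and by Reln and Stard13. Prdm6, a gene of the set that defines Crh and Prdm6 nuclei, was found in all 20 nuclei of cluster 11. Those 20 nuclei, 3 of them members, held 85 Shroom4 UMIs, and all comparison nuclei held 145. The part of cluster 11 in the Shroom4 result was not tested.

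**Figure D4:**
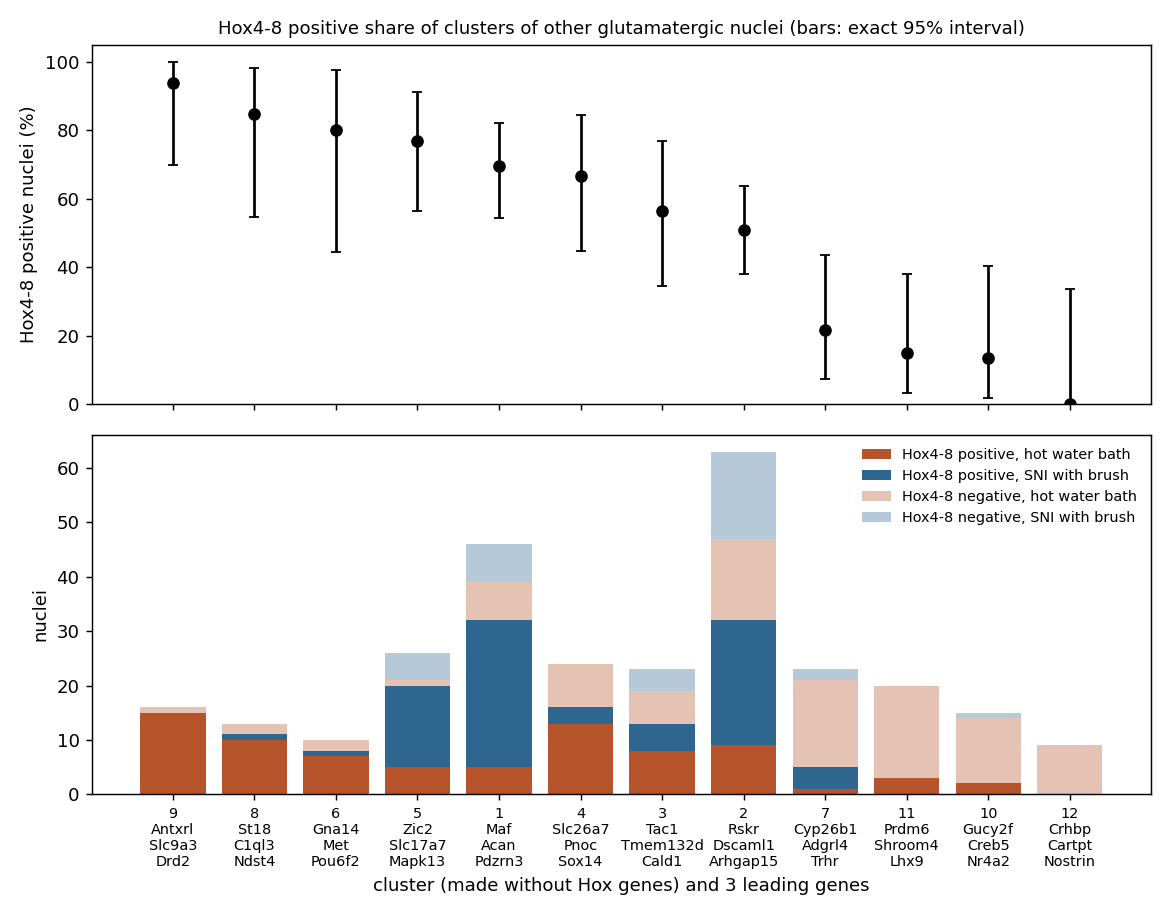
Top: percent of nuclei in each cluster that are Hox4-8 positive, with exact 95% intervals. Bottom: number of positive and negative nuclei of each library per cluster, with 3 leading genes under each number. The shares span 0 to 93.8%, and clusters 9, 11 and 12 hold nuclei of the hot water bath library only.

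The members of the 2 libraries sat largely in different clusters. Of 78 hot water bath members 15 were in cluster 9, 13 in cluster 4, 10 in cluster 8 and 9 in cluster 2. Of 79 SNI with brush members 27 were in cluster 1, 23 in cluster 2 and 15 in cluster 5. A cluster drawn mostly from 1 library may be that library and not a cell type, and cluster 4 also led with Slc5a7, a choline transporter, and Vcan, a matrix gene also expressed by oligodendrocyte precursors, of whose other markers Pdgfra and Cspg4 were found in 0 of its 16 members. Of the other cholinergic genes, Chat was found in 5 of the 16 and Slc18a3 in 0. Slc17a7, the transporter that in the hindbrain is typical of precerebellar neurons, was in all 20 members of cluster 5 and in 5 of 32 of cluster 1. The large-neuron genes Nefh, Pvalb and Spp1 were in 27, 25 and 20 of the 32 cluster 1 members and in 17, 19 and 17 of the 20 cluster 5 members.

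The Hox content differed in the same way. Group 4 gave 42.3% of the 248 Hox4-8 UMIs of cluster 1 and 39.7% of the 116 of cluster 2. It gave 56.2% of 89 in cluster 5, and 78.9%, 80% and 83.3% of the 38, 30 and 24 UMIs of clusters 9, 4 and 8. Clusters 4, 8 and 9, made mostly of hot water bath members, thus had larger shares of group 4 than clusters 1, 2 and 5, whereas cluster 10, with 2 hot water bath members and 3 Hox4-8 UMIs, had none. Cluster 2 was the only cluster with more than 8 members from each library. Cluster 1 members were also deeper, with a median of 54694 UMIs against 26646.5 in cluster 2.

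Between the libraries, levels were compared within members alone, as a log2 ratio of summed UMIs scaled to total UMIs with 0.5 UMI added, with no test. Of 11019 genes with at least 50 member UMIs, 1299 (11.8%) were at least 2-fold higher in SNI with brush and 188 (1.71%) at least 2-fold lower. The median over all genes was 0.15, and scaling by size factors moved every ratio by -0.20 and the counts to 895 and 330. The clusters named above hold most of each library's members, and the composition of the members and the level per nucleus cannot be told apart in these sums.

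Penk, the precursor of the opioid enkephalins, had the largest ratio among genes with at least 50 UMIs and at most 25% of them in 1 nucleus, predicted gene models left out. It gave 4 UMIs in 3 hot water bath members (1.23 CPM) and 132 UMIs in 27 SNI with brush members (35.7 CPM), a log2 ratio of 4.70 (3.48 to 6.76), and no nucleus held more than 20 of them. In the comparison nuclei Penk stood at 10.9 and 27.6 CPM (log2 ratio 1.35), from 40 UMIs in 18 nuclei and 41 UMIs in 6. Of those 41 UMIs 31 lay in 1 nucleus, so the SNI with brush comparison value rests largely on it. The other 4 opioid genes measured did not reach a 2-fold difference: the mu receptor gene Oprm1 stood at 58.2 and 69.9 CPM, Oprd1 at 23.0 and 18.1 CPM, Oprk1 at 7.05 and 11.6 CPM and Oprl1 at 15.6 and 23.6 CPM. The precursor genes Pnoc and Pomc gave few UMIs, 9 and 5 for Pnoc and 8 and 8 for Pomc, and Pdyn gave 0 in both libraries.

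Other genes were high in the SNI with brush members in 2 different patterns. Maf, a bZIP transcription factor, stood at 7.35 and 72.0 CPM (log2 ratio 3.26) but at 18.7 and 20.2 CPM in comparison nuclei (0.12). The nuclear receptor Rorb stood at 4.29 and 39.3 CPM (3.15) and was the other way round in comparison nuclei, at 33.6 and 12.8 CPM (-1.36). Bmp6, a BMP family ligand, had ratios of 4.23 and 0.89. In contrast, Ttr had ratios of 4.69 in members and 4.54 in comparison nuclei, Atp13a5 4.55 and 3.78, Ptprq 3.06 and 3.45, Hba-a1, a globin of red blood cells, 3.18 and 2.28, and Camkv 4.64 and 2.05. These 5 were high in both classes of that library. Ighm was at 3.12 and 1.31.

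Lower in the SNI with brush members were Gna14, a G protein alpha subunit, at 21.5 and 1.35 CPM (log2 ratio -3.86) and Chrna7 at 236 and 35.7 CPM (-2.72), with ratios of -1.65 and -1.89 in comparison nuclei. Etv4, an ETS transcription factor, stood at 13.2 and 1.90 CPM (-2.71), with 4.07 and 4.04 CPM in comparison nuclei (0.06). Cacng3, which helps deliver AMPA receptors, stood at 111 and 27.4 CPM (-2.01, and -1.32 in comparison nuclei). Lncenc1 and Dchs2, a large cadherin, had ratios of -2.39 and -1.77. Pmfbp1, Tex47, Alpk1 and Spag6l lay between -2.66 and -1.88. Etv4 and Alpk1 also lead cluster 9, whose members all came from the hot water bath library, and Gna14 and Lncenc1 lead cluster 6, with 7 of its 8 members from that library.

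**Figure D5:**
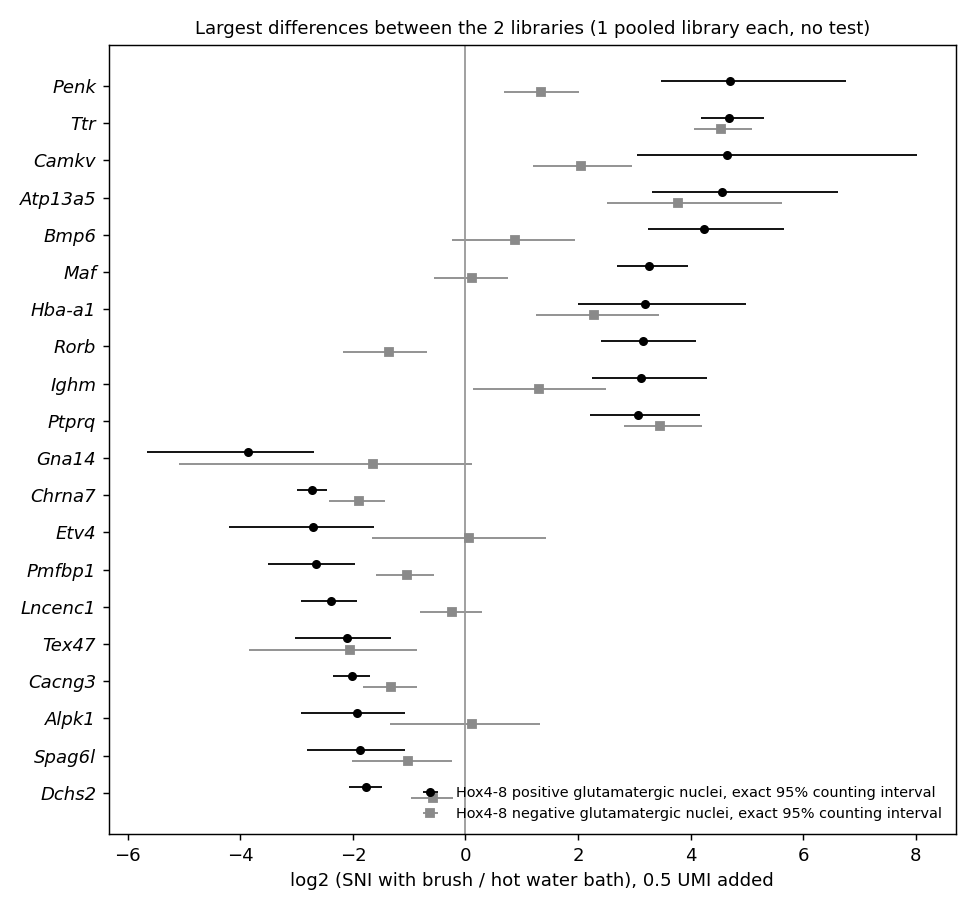
Log2 of the SNI with brush level over the hot water bath level (x axis) for the genes named in the comparison of libraries (y axis), in members and in Hox4-8 negative glutamatergic nuclei, with exact 95% intervals of counting error. Ttr, Atp13a5 and Ptprq have nearly the same ratio in both classes, whereas Maf, Rorb and Etv4 differ from 0 in members only or in opposite directions.

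Among neuropeptides, 9 of 19 genes were at least 2-fold higher in SNI with brush members and 2 lower, against 11.8% and 1.71% of all genes. The median was 0.75, and 0.52 in comparison nuclei. Here and in the lists below, list genes were counted from 20 member UMIs and all genes from 50. The shares of a list and of all genes thus rest on unlike floors, and their difference was not tested. Vip, vasoactive intestinal peptide, gave 56 UMIs in 11 hot water bath members (17.2 CPM) and none in SNI with brush, at least 21.1-fold lower against a floor of 3 counts; 8 of those 11 were in cluster 9. Tac1, the substance P precursor, stood at 9.50 and 40.9 CPM in 12 and 16 members. Nppc, C-type natriuretic peptide, stood at 2.76 and 20.3 CPM in 9 and 25 members, and Sst, somatostatin, at 6.44 and 116 CPM in 5 and 32. In 1 nucleus of each library lay 17 of the 21 hot water bath and 109 of the 429 SNI with brush Sst UMIs. Values for Nts and Gal turned on 1 nucleus each, which held 79 of 115 and 37 of 47 UMIs; without it Nts stood at 9.80 CPM and Gal at 2.72 CPM in SNI with brush members.

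Of 16 peptide receptors measured, 3 (18.8%) were at least 2-fold higher in SNI with brush members and 4 (25%) lower, against 11.8% and 1.71% of all genes, with a median of 0.06. Cckbr, the brain cholecystokinin receptor, stood at 2.76 and 12.7 CPM in 7 and 25 members, and Tacr1, the substance P receptor, at 12.0 and 24.6 CPM. Tacr3, the neurokinin B receptor, stood at 10.1 and 2.98 CPM, Glp1r at 11.6 and 3.79 CPM, and the leptin receptor gene Lepr at 57.3 and 19.5 CPM. Tacr3 belongs to a set of genes that excluded nuclei from the members, so its level is shaped by the rule. It was counted among the 4 lower receptors, whereas rule genes were left out of the shares of all genes. Calcr reached 35.2 CPM in SNI with brush, but 58 of its 130 UMIs were in 1 of 7 nuclei.

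Of 12 monoamine receptors, none was at least 2-fold higher in SNI with brush members and 4 (33.3%) were lower, against 11.8% and 1.71% of all genes. The median was -0.59 (-0.43 in comparison nuclei). Htr2c, the serotonin 2C receptor, was the most abundant, in 69 and 61 members at 1038 and 500 CPM (log2 ratio -1.05, and -0.71 in comparison nuclei). Htr4 stood at 114 and 56.0 CPM and Adra1b at 44.7 and 15.7 CPM. Drd2, the dopamine D2 receptor, stood at 24.8 and 12.2 CPM in 27 and 16 members, and 13 of the 27 were in cluster 9. Hot water bath members were thus the higher sum for each of these 4 receptors, while Htr7 (60.1 and 54.2 CPM) and Htr1b (11.6 and 10.3 CPM) were near level.

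Genes of large projection neurons were higher in SNI with brush in members and comparison nuclei alike. Of 22 (Slc17a7, a gene of the rule, among them), 16 (72.7%) were at least 2-fold higher and none lower, against 11.8% and 1.71% of all genes. Medians were 1.23 in members and 1.19 in comparison nuclei. Pvalb, a calcium buffer of fast-firing neurons, stood at 13.2 and 64.2 CPM in 28 and 54 members, and Nefh at 32.5 and 82.6 CPM in 39 and 60. Vamp1, a synaptic vesicle protein, stood at 26.0 and 113 CPM, Hapln1, a link protein of perineuronal nets, at 5.82 and 30.3 CPM, and Scn4b, a sodium channel subunit, at 10.7 and 46.6 CPM. Genes of oxidative phosphorylation, whose short transcripts are abundant in cytoplasm, had the same direction. Of 21, 17 (81.0%) were at least 2-fold higher and none lower, against the same shares of all genes, with medians of 1.40 and 1.19. Atp5e stood at 10.4 and 62.5 CPM, Uqcrq at 21.1 and 110 CPM, Ndufa5 at 14.1 and 73.6 CPM and Ndufa2 at 12.6 and 61.2 CPM. Mitochondrial content also had that direction (0.0729 and 0.231%), and its part in either list was not tested.

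Of 37 neuron class factors, 16 (43.2%) were at least 2-fold higher in SNI with brush members and 2 (5.41%) lower, against 11.8% and 1.71% of all genes. The median was 0.45, and 0.63 in comparison nuclei. Lhx1, a LIM factor of several interneuron lineages, gave 40 UMIs in 18 SNI with brush members and none in hot water bath members. Reading the 0 as 3 counts gives a level 11.8-fold higher, and the exact interval of the log2 ratio starts at 3.19. Sox6, a SoxD factor, stood at 1.84 and 23.8 CPM in 6 and 14 members, and Foxp2 at 3.98 and 47.1 CPM, with 115 of its 174 SNI with brush UMIs in 1 nucleus. Zic1, a factor of dorsal neurons and precerebellar nuclei, stood at 3.37 and 23.3 CPM in 5 and 26 members, and Ebf1 at 191 and 606 CPM. Sox14 was among the lower factors, at 7.05 and 0.81 CPM. The rostral factor Pax5 gave 26 UMIs in 6 SNI with brush members and none in the other library.

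Immediate early genes, which report recent activity and one of which drives the TRAP2 allele, had ratios in both directions: of 14, 3 (21.4%) were at least 2-fold higher in SNI with brush members and 4 (28.6%) lower, against 11.8% and 1.71% of all genes, with a median of -0.12 (0.59 in comparison nuclei). The genes of this list were counted from 20 member UMIs and all genes from 50, so these shares rest on unlike floors. Nr4a2, among the 4 lower, gave 25 and 8 member UMIs and lay under the floor of 50. Fos gave 6 UMIs in 5 hot water bath members and 17 UMIs in 12 SNI with brush members (1.84 and 4.60 CPM, log2 ratio 1.25, -0.09 to 2.96). Jund stood at 12.9 and 40.9 CPM, Arc at 1.23 and 4.33 CPM, Nr4a3 at 6.74 and 1.08 CPM, Nr4a2 at 7.66 and 2.17 CPM and Bdnf, a neurotrophin, at 74.8 and 31.4 CPM. Of 35 axon guidance genes 3 (8.57%) were higher and 2 (5.71%) lower, against 11.8% and 1.71% of all genes (median -0.06). Nrp1, a semaphorin receptor, stood at 24.5 and 64.2 CPM, Ntn1 at 1.53 and 8.94 CPM with 27 of its 33 SNI with brush UMIs in 1 nucleus, Slit1 at 41.7 and 19.8 CPM and Sema6d at 988 and 479 CPM.

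Among Hox cofactors, Pbx2 was the 1 of 9 at least 2-fold higher (3.98 and 13.3 CPM) and Meis2 the 1 lower (535 and 244 CPM). Each is 11.1% of the list, against 11.8% and 1.71% of all genes. Pbx4 stood at 23.9 and 35.2 CPM, and Meis1 was level at 174 and 175 CPM. Of 7 retinoic acid genes 3 (42.9%) were higher and none lower, against the same shares of all genes. Aldh1a1, which makes retinoic acid, stood at 2.45 and 8.12 CPM and Rxrb at 7.05 and 17.9 CPM. Rarb, a retinoic acid receptor, stood at 30.3 and 40.1 CPM, less than 2-fold apart. Of 10 transmitter genes, those of the rule among them, 6 (60%) were higher and none lower, against the same shares of all genes. Slc17a7, Slc17a8, Gad1 and Gad2, among these 6, chose the members, and rule genes were left out of the shares of all genes. The 60% is thus a description and no result to set against that background. Tph2, also among the 6, had 82 of its 89 SNI with brush UMIs in 1 nucleus. Higher were the inhibitory enzyme genes Gad1 (2.76 and 6.23 CPM) and Gad2 (2.45 and 6.23 CPM), among others, while Slc17a6 was level at 169 and 184 CPM. Slc17a7 stood at 16.9 and 37.4 CPM in 5 and 23 members, Slc17a8 at 1.84 and 6.50 CPM, Slc32a1 at 0.61 and 2.44 CPM and Slc6a5 at 0.92 and 3.25 CPM. Glul, glutamine synthetase, which is enriched in astrocytes, stood at 10.1 and 37.4 CPM, with astrocyte markers at 4.60 and 28.4 CPM; their part in it was not tested. Slc6a9 stood at 11.3 and 12.5 CPM. Chat stood at 3.06 and 4.60 CPM, and Th gave no UMI in hot water bath members and 15 in 5 SNI with brush members. Slc18a3 gave 0 and 5 UMIs and Dbh 0 and 1.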

How the data were processed

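Nuclear RNA of 2 pooled hindbrain libraries was measured, 1 per treatment. The deposited count matrices hold raw UMI counts per gene and nucleus; the mm10 genome build, Seurat and Cell Ranger 5.0 are named, per the submitters' processing notes, and no other step is given in the sources used here. Each count column was assigned to its library through the sample record of its file. Members were chosen by the rule given in the report, and members, lists and tests were all chosen with earlier results of these data known. Doublets were called with Scrublet, which marked 3 and 2 nuclei, 0 and 1 of them members; they were kept, and left out as an alternative.

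From the deposited counts, levels were computed as CPM (UMIs of a gene per 1000000 UMIs of the same sum) with exact Poisson intervals, and shares with exact Clopper-Pearson intervals at 95%. The class comparison summed counts per library and class (4 sums) and used edgeR 4.0.16 in R 4.3.3 (TMM scaling, filterByExpr, quasi-likelihood test, library as a term, Benjamini-Hochberg over all 13903 genes fitted), with an adjusted p threshold of 0.05. On simulated counts for 13537 genes of which 200 were changed, at a dispersion of 0.0124, it called 186, of which 7 were false, and recovered 100% of 4-fold and 79% of 2-fold changes. The dispersion between animals is unknown, so this bears on the calculation only. The library comparison was a log2 ratio with 0.5 UMI added, over genes with at least 50 member UMIs (20 for genes on lists), with an exact conditional interval and no test. A count of 0 was read as up to 3 counts.

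Genes named in the class comparison had an adjusted p below 0.05, the same sign in each library, UMIs in 10 or more of the higher class's nuclei and at most 25% of that class's UMIs in 1 nucleus; up to 12 with the largest differences in each direction were taken (12 higher and 9 lower). Genes of the membership rule, predicted gene models, and mitochondrial, ribosomal protein and sex-linked marker genes were not named in either comparison. In the library comparison the 10 largest in each direction with a UMI in at least 5 nuclei and the same 25% limit were taken, and up to 4 genes of each list. All Hox, transmitter and opioid genes measured are given, apart from a few items not reported here. The cluster and Hox combination details, and other list genes given with values beyond that rule, such as Nppc, Tac1, Tacr1, Lepr, Htr7, Htr1b, Zic1, Ebf1, Nefh, Fos, Bdnf and Meis1 in the library comparison, were chosen after their values were seen. Clusters were made with scanpy 1.11.5 and leidenalg 0.10.2 on 2000 variable genes without Hox genes, centred within each library, with 30 components, 15 neighbours and a resolution of 1.0. Gene positions come from the GENCODE annotation of mm10. Alternatives were DESeq2 1.42.0, limma 3.58.1 on mean CPM (pseudocount 1), other scalings, filters, depths and member thresholds.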

Additional observations from a re-analysis of the deposited data

Results flagged for a closer look

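For 10 genes the member nuclei were above the Hox4-8 negative glutamatergic nuclei in one library and below them in the other; each library gives 1 sum per class, and the difference between the libraries was not tested. The first log2 ratio below is that of members over negative nuclei in the hot water bath library and the second that in SNI with brush. Maf, the factor that leads cluster 1, had ratios of -1.33 and 1.81, and Rorb -2.93 and 1.58. The peptide gene Vip had 2.60 and -4.12. The first has 25 of 56 hot water bath member UMIs in 1 nucleus, and the second rests on 0 UMIs in 79 members against 2.02 CPM in 1 negative nucleus. The calcitonin receptor gene Calcr had -1.63 and 2.07, with 58 of 130 SNI with brush member UMIs in 1 nucleus. Tph2 had -4.38 and 3.85, with 82 of 89 SNI with brush member UMIs in 1 nucleus. The guidance receptor gene Nrp1 had -0.55 and 0.73, and the mu opioid receptor gene Oprm1 -0.28 and 0.40. Lncenc1 had 0.98 and -1.18, Dchs2 0.61 and -0.59, and Htr2c 0.11 and -0.23.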

How the results depend on the processing

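The share of other glutamatergic nuclei that were members, 44.8% of 174 in the hot water bath library and 69.3% of 114 in SNI with brush, was 23.0% and 43.0% with at least 2 Hox4-8 UMIs, 16.1% and 32.5% with at least 3, and 20.1% and 35.1% after thinning to 9000 UMIs. It stayed within 66.3 to 69.6% in SNI with brush and 44.1 to 45.3% in hot water bath with a 90% transmitter share, without called doublets, or without nuclei of at least 50 liver UMIs. Among hot water bath nuclei of other classes, a Hox4-8 UMI was found in 35.5% of C1ql2 and Tacr3 nuclei, with at least 2 UMIs in 9.68% and after thinning in 12.9%; at least 2 UMIs were found in 0% of Crh and Prdm6 nuclei. The class comparison called 20 genes higher and 15 lower in members, and 1 and 1 with DESeq2 (116 genes at an unadjusted p below 0.05) or total UMIs only. It called 0 and 0 without the library term, 2 and 3 without called doublets, 8 and 7 without nuclei of at least 50 liver UMIs, 101 and 88 without a filter on low counts, and 86 and 78 with members of at least 2 UMIs. It called 10 and 11 in nuclei of 25000 to 60000 UMIs (5 and 5 shared with the 20 and 15), 10 and 12 with limma (9 and 7 shared), and 11 and 16 against comparison nuclei with a Hox1-3 UMI (3 and 7 shared). Of the calls that could be fitted again, 1 higher gene of 19 changed sign with members of at least 2 UMIs, and none in the other alternatives. Thinning to 9000 UMIs gave 18 and 18 calls, of which 9 and 7 were shared with the 20 and 15. Leaving out 1 library moved Reln between 1.45 and 1.47, with no test. Between libraries, size factors gave 330 genes at least 2-fold lower in SNI with brush in place of 188, and the share of 2-fold genes that were higher was 73.1% in place of 87.4%; a floor of 100 UMIs left fewer genes, with 806 higher and 116 lower. Clusters numbered 11 at a resolution of 0.5 and 16 at 2.0. Thinning, the liver and Hox1-3 alternatives, the 2-UMI check of other classes and the resolutions were chosen after seeing the data. No paired analysis was possible because each treatment is 1 pooled library; this concerns the comparison of treatments, and the class comparison had library as a term. Depth limits the assignment of single nuclei: 68 of 157 members rest on 1 Hox4-8 UMI.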

Other observations

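Within the members, nuclei whose highest paralog group was 5 to 8 (28 and 57) were set beside those that stopped at group 4 (50 and 22), library by library, a split made after the Hox values were seen. Of 11015 genes, 91 were higher and 95 lower in the caudal set of both libraries by intervals of counting error that leave out 0, and 141 had such intervals on opposite sides, so no general pattern was shared. Among the 91 were Chrm2, the M2 muscarinic receptor, at 398 against 289 CPM in hot water bath and 317 against 147 CPM in SNI with brush. Slc24a3, a sodium, potassium and calcium exchanger, stood at 139 against 68.8 CPM and 146 against 77.6 CPM, and the potassium channel gene Kcnt2 at 114 against 56.5 CPM and 104 against 70.7 CPM. Lower in the caudal set were the adhesion and guidance genes Cdh7 (129 against 245 CPM and 170 against 226 CPM), Nrp2 (44.1 against 68.8 CPM and 50.4 against 70.7 CPM) and Sema6a (29.4 against 47.0 CPM and 59.6 against 85.6 CPM). Median depths were 38201 against 41911.5 UMIs in hot water bath and 41951 against 32747.5 UMIs in SNI with brush; the part of depth was not tested.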
